A study of Homo sapiens with 9 samples.

Results

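The E2F transcription factors and the RB family of pocket proteins were examined as a group of 10 genes, taken by name: E2F1, E2F2, E2F3, E2F4, E2F5, E2F7 and E2F8 with RB1, RBL1 and RBL2. They are 10 of the 58735 genes listed in the count table, and all 10 were among the 16350 genes with enough reads to be tested. RNA had been sequenced from SKOV3 cells, a human ovarian cancer cell line, in 3 groups of 3 libraries. WT CDK9 cells expressed wild-type CDK9 under basal conditions. ALK inhibitor-treated WT CDK9 cells were the same kind of cells after 24 h with an ALK inhibitor, whose name and dose the labels do not give. Tyr19Phe CDK9 cells expressed CDK9 in which tyrosine at the site phosphorylated by ALK was replaced by phenylalanine, and they received no inhibitor. The comparisons ask what blocking ALK, or removing its phosphorylation site on CDK9, does to gene expression. The study used stable SKOV3 lines for these proteins, so each group of transfected cells may represent a single line, and the labels say neither whether a line was a clone nor whether endogenous CDK9 had been depleted in it. Nothing in the labels says that the 3 libraries of a group came from separate cultures, so p-values measure only the spread between these libraries, which may be technical.

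E2F proteins bind DNA as dimers with DP proteins and switch genes for DNA replication and cell division on or off. E2F1, E2F2 and E2F3 are the activators, E2F4 and E2F5 act mainly as repressors together with pocket proteins, and E2F7 and E2F8 are atypical repressors that bind DNA without a DP partner. The pocket proteins pRB (RB1), p107 (RBL1) and p130 (RBL2) hold E2Fs in check until cyclin-CDK complexes phosphorylate them late in G1, and p107 and p130 also join E2F4 or E2F5 with the MuvB proteins in the DREAM complex, which silences cell cycle genes in resting cells. Several E2F and pocket protein genes are themselves targets of E2F. CDK9, the kinase changed in this study, is not a cell cycle CDK: with cyclin T it releases paused RNA polymerase II into elongation.

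Total counts were between 18169050 and 20974903 in the WT CDK9 and ALK inhibitor-treated libraries and between 26485891 and 29320184 in the Tyr19Phe CDK9 libraries. Levels were therefore given as CPM, counts scaled to library size after TMM normalization, and as RPKM, CPM per kilobase of gene length, where genes were compared with each other. Genes with at least 1 count numbered 19944 in ALK inhibitor replicate 2, where its fellow libraries had 21911 and 21915, and this library also lay apart on the second principal component, which held 17.0% of the variance. In Tyr19Phe CDK9 replicate 3 they numbered 20635, against 22609 and 22744. On the first principal component, with 24.8% of the variance, Tyr19Phe CDK9 replicate 3 lay at 48.3, against 27.2 and 27.9 for its fellow libraries. ALK inhibitor replicate 2 lay at -38.2 there, against -14.4 and -17.0. The ovarian and epithelial markers ERBB2, KRT7, KRT8, KRT18, KRT19, EPCAM and PAX8 were all expressed, with a summed level of 5163 to 5986 CPM over the libraries. Of these 7 markers edgeR called 1 lower and 2 higher with the inhibitor, 3 lower and 2 higher with Tyr19Phe CDK9, and 3 lower and 3 higher in the direct contrast. With Tyr19Phe CDK9 the log2 fold changes were -1.24 for KRT19, -0.82 for EPCAM, -0.29 for ERBB2, 0.38 for KRT8 and 0.39 for KRT18. Of 9 leukocyte, endothelial and fibroblast markers, COL1A1 and COL1A2 passed the filter for testing, the leukocyte markers PTPRC, CD3E and CD68 had 0 to 4 counts in every library, and CDH5 had 14 to 35 counts in Tyr19Phe CDK9 cells against 0 or 1 elsewhere. The summed level of these 9 was 110 to 114 CPM in WT CDK9 cells, 125 to 162 CPM with the inhibitor and 38.7 to 52.8 CPM in Tyr19Phe CDK9 cells, nearly all of it COL1A1. The part of either marker list in the differences below was not tested. In bulk RNA, fewer cells in a given cell cycle phase and less RNA per cell cannot be told apart.

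In WT CDK9 cells, E2F1 was the most abundant of the 10 transcripts per length. Its level was 51.8 ± 2.53 RPKM (SD, n = 3), higher than 95.5% of all tested genes and 26.6 times that of E2F5. RB1 followed at 25.7 ± 1.04 RPKM (SD, n = 3) and E2F4 at 23.4 ± 1.69 RPKM (SD, n = 3). The libraries of these 2 genes overlapped, so their order was not resolved.

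E2F7, E2F3 and RBL2 formed the middle of the order at 13.0 ± 0.982, 12.9 ± 0.744 and 12.7 ± 0.105 RPKM (SD, n = 3), again with overlapping libraries. Below them were RBL1 at 9.85 ± 0.151 RPKM and E2F8 at 6.85 ± 0.832 RPKM (SD, n = 3). E2F2 at 2.76 ± 0.209 RPKM and E2F5 at 1.95 ± 0.0806 RPKM (SD, n = 3) were lowest, and the libraries of each of these 4 genes did not overlap with those of the gene next in order. E2F5 still had 209 to 229 counts per library, well above the floor of 3 counts. It was higher than 36.0% of the tested genes.

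**Figure D1:**
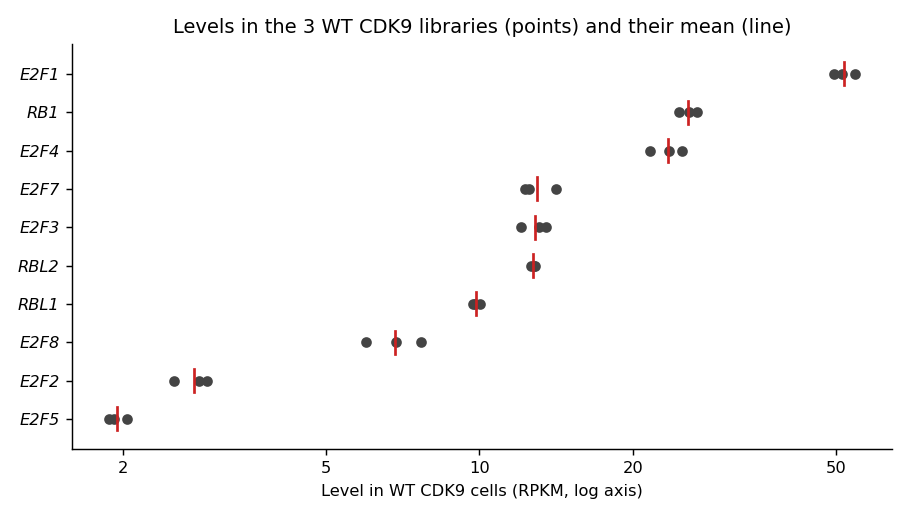
Level of each of the 10 genes in the 3 WT CDK9 libraries (points) with the mean (line), in RPKM on a log axis. E2F1 stands above the others at 51.8 RPKM, RB1 and E2F4 share the next range, and E2F2 and E2F5 lie at the bottom.

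The genes are scattered over the genome. In the hg38 coordinates of the deposited table, E2F1 (ENSG00000101412) lies on chromosome 20 from 33675683 to 33686404 and RBL1 (ENSG00000080839) on the same chromosome from 36996349 to 37095995, both on the minus strand. E2F2 (ENSG00000007968) lies on chromosome 1 from 23506430 to 23531220 on the minus strand. E2F7 (ENSG00000165891) lies on chromosome 12 from 77021247 to 77065580 on the minus strand. RB1 (ENSG00000139687) lies on chromosome 13 from 48303726 to 48599436 on the plus strand. All 10 are annotated as protein-coding, and their listed lengths run from 2503 bases for E2F1 to 7320 bases for RBL2.

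Because E2F genes can be targets of E2F, their promoters were searched for E2F motifs. RefSeq promoter windows (250 bases before to 50 after the transcription start, GRCh38.p14) were at hand for 8 of the 10 genes, 10 windows in all, where the window of RB1 belongs to an internal start of the gene. The letters searched on both strands were TTTGGCGC, TTTCCCGC, TTTGCCGC and TTTCGCGC. Matches were found in 4 of the 10 windows, those of E2F1, E2F2, RBL1 and the upstream start of E2F3, against 3.31% of 35116 promoter windows of the same length in all. The 4 stretches are shown because they hold the matched letters. Sites with other letters, or outside these windows, were not searched for. Capitals mark the matched letters, and each is written 5′ to 3′ on the strand of its gene.
E2F1, chr20:33686386-33686430, minus strand: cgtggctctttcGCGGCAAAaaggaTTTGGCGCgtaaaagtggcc
E2F2, chr1:23531256-23531287, minus strand: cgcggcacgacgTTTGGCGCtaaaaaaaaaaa
E2F3, chr6:20401814-20401845, plus strand: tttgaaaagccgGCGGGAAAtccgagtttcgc
RBL1, chr20:37095998-37096035, minus strand: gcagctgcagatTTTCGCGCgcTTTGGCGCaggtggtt
E2F1 and RBL1 each carry 2 matches within the last 33 bases before the RefSeq start, and the letters TTTGGCGC occur in E2F1, E2F2 and RBL1. In the deposited table E2F1 begins further upstream, at 33686404, so part of its stretch lies inside the gene as listed there. The windows of E2F4, E2F7, RBL2, the internal start of RB1 and the downstream start of E2F3 held none of these letters. CCAAT boxes (CCAAT, searched on both strands) numbered 4 in the windows of E2F7 and of the upstream start of E2F3, 3 in that of E2F1 and 1 in a window of RBL2, and they occur at least once in 34.6% of all windows. A match is a description of the sequence and not of binding.

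Across the 3 groups the largest log2 fold change of a member was -0.40, and most were smaller. With the ALK inhibitor, 1 of the 10 members was called, at an adjusted p under 0.05 in edgeR's quasi-likelihood test over all tested genes: E2F1 was lower. Over all tested genes, 2.73% were called lower and 1.82% higher in that comparison. With Tyr19Phe CDK9, 4 members were called, E2F2, RB1 and RBL1 lower and E2F7 higher. There 10.4% of all tested genes were called lower and 7.61% higher. Between Tyr19Phe CDK9 cells and inhibitor-treated cells, 3 members were called, with E2F1 and E2F7 higher and RBL1 lower in Tyr19Phe CDK9 cells, where 11.1% of all tested genes were called lower and 9.57% higher. The comparisons share libraries: inhibitor-treated and Tyr19Phe CDK9 cells were set against the same WT CDK9 libraries, and the direct contrast uses the libraries of both. Tyr19Phe CDK9 is a mutation carried by separate cells and not a treatment, and its libraries are also the deepest. The part of cell line and depth in these differences was not tested.

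The groups' libraries did not overlap for 2 members with the inhibitor (E2F1 and RBL2), where this held for 19.6% of all tested genes. With Tyr19Phe CDK9 it held for 4 members (E2F2, E2F7, RB1 and RBL1), against 32.6% of all tested genes. In the direct contrast it held for 5 members (E2F1, E2F4, E2F7, RB1 and RBL1), against 34.4% of all tested genes. With 3 libraries a group, the smallest two-sided p that exact permutation of 1 gene's values allows is 0.1.

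**Figure D2:**
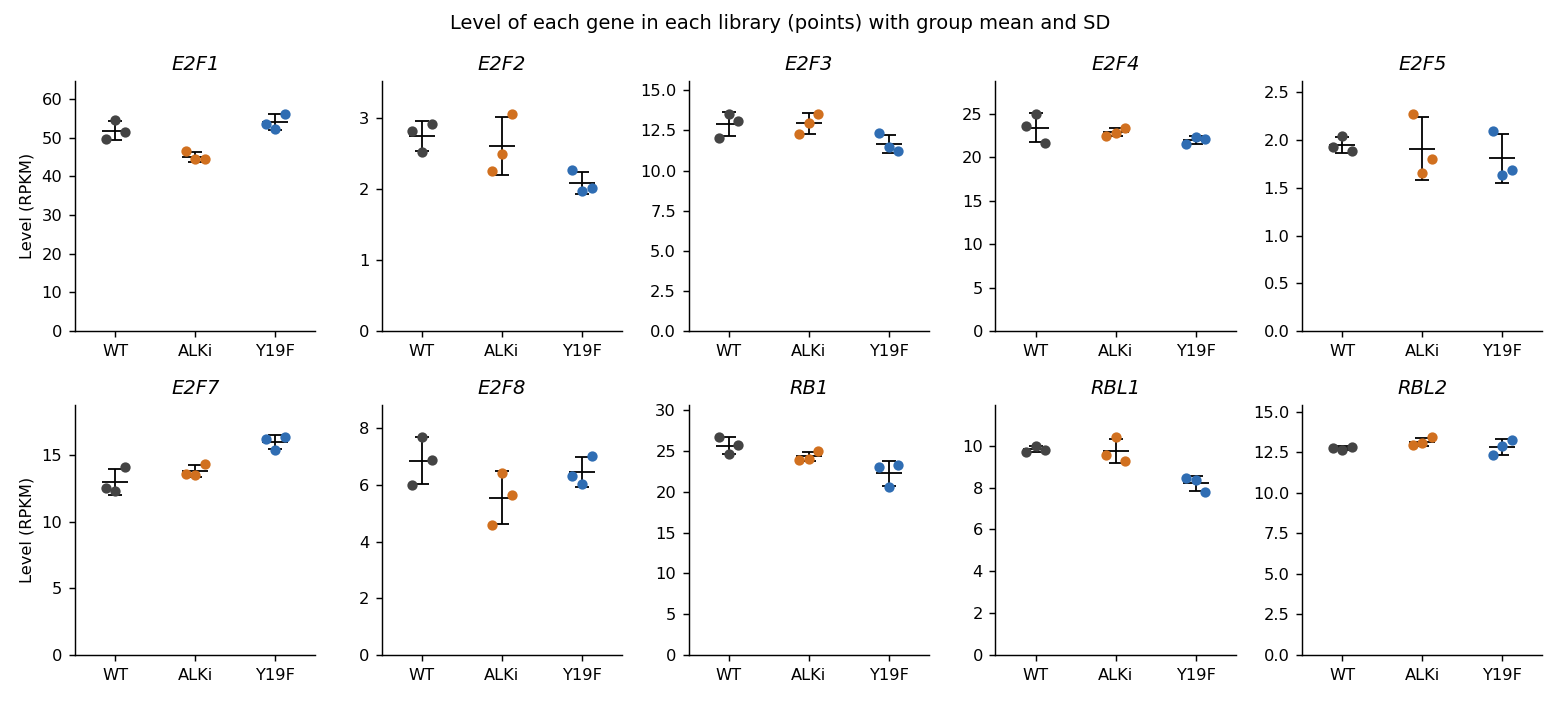
Level of each gene in RPKM in every library (points), with the mean and SD of the 3 libraries of a group, for WT CDK9 (WT), ALK inhibitor-treated WT CDK9 (ALKi) and Tyr19Phe CDK9 cells (Y19F); each axis starts at 0. E2F1 is lowest with the inhibitor, E2F7 is highest in Tyr19Phe CDK9 cells, and E2F2, RB1 and RBL1 are lowest there.

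Among the activators, E2F1 drives entry into S phase and is also known for promoting cell death when unrestrained. It was measured at 124, 137 and 128 CPM in the WT CDK9 libraries, at 116, 111 and 111 CPM with the ALK inhibitor and at 134, 131 and 141 CPM in Tyr19Phe CDK9 cells. All 3 inhibitor-treated libraries lay below every other library. E2F1 fell by 13.0% with the inhibitor (log2 fold change -0.20, SE 0.05, edgeR adjusted p = 0.0252). In Tyr19Phe CDK9 cells the log2 fold change against WT CDK9 cells was 0.06 (SE 0.05, edgeR adjusted p = 0.534), with overlapping libraries. In the direct contrast, E2F1 was 19.6% higher in Tyr19Phe CDK9 cells than with the inhibitor (log2 fold change 0.26, SE 0.05, 95% interval of the difference 10.8% to 29.1%, edgeR adjusted p = 5.79e-04).

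E2F2, an activator with a role close to that of E2F1, was measured at 15.4, 13.8 and 16.0 CPM in WT CDK9 cells, at 12.3, 13.7 and 16.7 CPM with the inhibitor and at 12.4, 10.8 and 11.0 CPM in Tyr19Phe CDK9 cells. The Tyr19Phe CDK9 libraries all lay below the WT CDK9 libraries, while the inhibitor-treated libraries spread over both. E2F2 fell by 24.2% with Tyr19Phe CDK9 (log2 fold change -0.40, SE 0.14, edgeR adjusted p = 0.0447), the largest change in size among the members and also the one with the widest error of those called. With the inhibitor the value was -0.08 (SE 0.14, edgeR adjusted p = 0.877). The direct contrast gave -0.32 (SE 0.14, edgeR adjusted p = 0.110), which did not pass the test.

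E2F3, an activator that is amplified in some bladder cancers, was measured at 62.2, 69.7 and 67.7 CPM in WT CDK9 cells, at 63.4, 67.0 and 69.9 CPM with the inhibitor and at 63.6, 59.1 and 57.9 CPM in Tyr19Phe CDK9 cells. Its libraries overlapped in all comparisons. The log2 fold changes were 0.0050 with the inhibitor (SE 0.07) and -0.14 with Tyr19Phe CDK9 (SE 0.07, edgeR adjusted p = 0.175), and the direct contrast gave -0.15 (SE 0.07, edgeR adjusted p = 0.145). E2F3 was the member whose genomic surroundings moved most with Tyr19Phe CDK9: the 36 tested genes within 5 Mb on either side had a median log2 fold change of -0.13, and 7 were called lower and 3 higher.

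The repressors gave no call. E2F4, the main E2F partner of the pocket proteins in resting cells, ranged from 77.0 to 89.6 CPM over the 9 libraries. Its log2 fold changes were -0.03 with the inhibitor (95% interval -0.16 to 0.10) and -0.09 with Tyr19Phe CDK9 (95% interval -0.22 to 0.04, edgeR adjusted p = 0.383). In the direct contrast it was -0.06 (edgeR adjusted p = 0.593), although each Tyr19Phe CDK9 library, at 77.0 to 80.1 CPM, lay below the inhibitor-treated libraries at 80.5 to 83.8 CPM. E2F5 ranged from 9.68 to 13.5 CPM, with log2 fold changes of -0.03 and -0.11, and its SE of 0.15 to 0.16 was the largest of the 10. The 95% interval of its change with the inhibitor ran from -21.3% to 22.5%. At 178 to 284 counts, the inhibitor-treated libraries of E2F5 spread over 11.3 ± 1.93 CPM (SD, n = 3).

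E2F7, an atypical repressor that E2F1 itself induces, was the member that rose. It was measured at 79.1, 77.5 and 88.9 CPM in WT CDK9 cells, at 85.5, 85.5 and 90.2 CPM with the inhibitor and at 102, 96.9 and 103 CPM in Tyr19Phe CDK9 cells. Every Tyr19Phe CDK9 library was above all 6 others, and the inhibitor-treated libraries overlapped with the WT CDK9 libraries. E2F7 was 23.1% higher with Tyr19Phe CDK9 (95% interval 12.7% to 34.4%, log2 fold change 0.30, SE 0.06, edgeR adjusted p = 6.15e-04). With the inhibitor the log2 fold change was 0.09 (SE 0.06, edgeR adjusted p = 0.579). Directly, E2F7 was 15.7% higher in Tyr19Phe CDK9 than in inhibitor-treated cells (log2 fold change 0.21, SE 0.06, edgeR adjusted p = 0.0136). The 25 tested genes within 5 Mb on either side of E2F7 had a median log2 fold change of 0.07 against WT CDK9 cells, with 0 called lower and 2 higher, and of 0.15 in the direct contrast.

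E2F8, the other atypical member, which often acts as a pair with E2F7, did not follow it. The libraries were at 24.9, 31.8 and 28.4 CPM in WT CDK9 cells, at 18.9, 26.6 and 23.4 CPM with the inhibitor and at 26.2, 24.9 and 29.1 CPM in Tyr19Phe CDK9 cells. Its spread within each group was wide and the groups overlapped. The log2 fold change was -0.31 with the inhibitor (SE 0.12, 95% interval -0.55 to -0.07, edgeR adjusted p = 0.169) and -0.09 with Tyr19Phe CDK9 (SE 0.12, edgeR adjusted p = 0.691). The direct contrast was 0.22 (SE 0.12, edgeR adjusted p = 0.194).

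**Figure D3:**
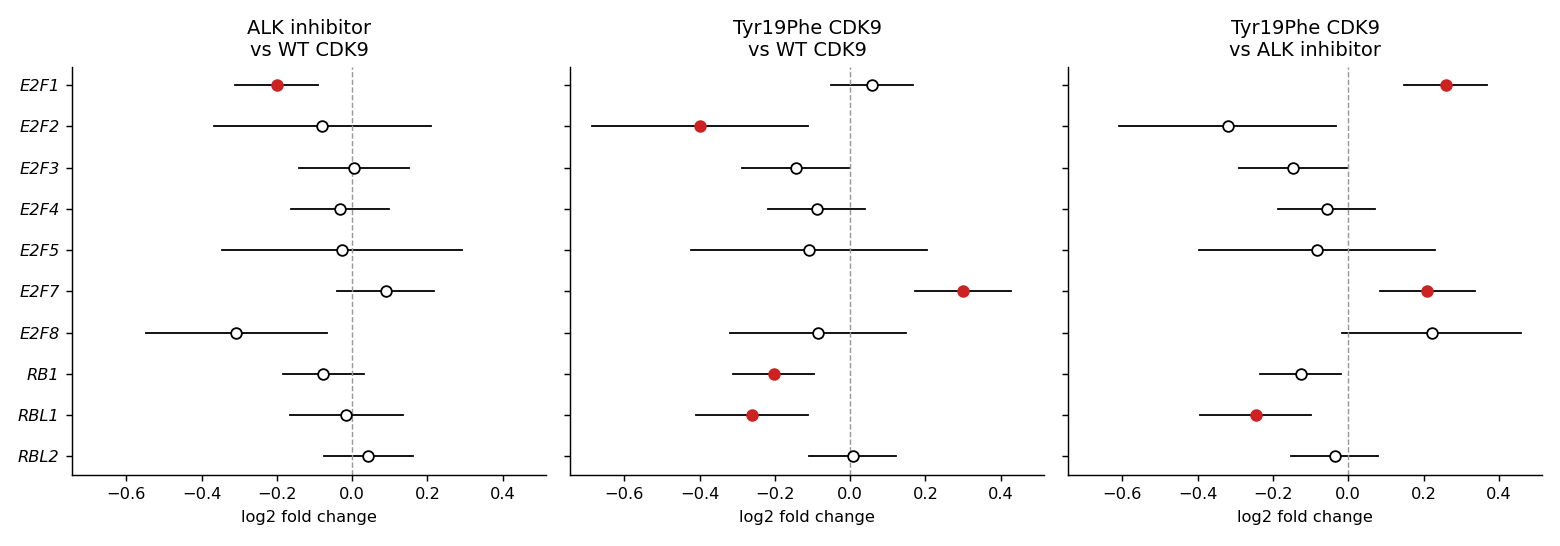
Log2 fold change of each gene (points) with its 95% interval (lines) in the 3 comparisons; red points passed an adjusted p of 0.05 in edgeR's quasi-likelihood test over all tested genes. E2F1 is the red point with the inhibitor at -0.20, and E2F7 at 0.30 stands opposite E2F2, RB1 and RBL1 with Tyr19Phe CDK9.

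Of the pocket proteins, RB1, the retinoblastoma tumour suppressor, was measured at 172, 159 and 166 CPM in WT CDK9 cells, at 155, 155 and 161 CPM with the inhibitor and at 149, 133 and 150 CPM in Tyr19Phe CDK9 cells. The Tyr19Phe CDK9 libraries lay below all others. RB1 fell by 13.1% with Tyr19Phe CDK9 (log2 fold change -0.20, SE 0.05, edgeR adjusted p = 0.00532). With the inhibitor the log2 fold change was -0.08 (SE 0.05, edgeR adjusted p = 0.565), and the direct contrast of -0.13 (SE 0.05, edgeR adjusted p = 0.0887) did not pass.

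RBL1, whose protein p107 accumulates in cycling cells, was measured at 57.9, 59.6 and 58.3 CPM in WT CDK9 cells, at 56.8, 62.0 and 55.3 CPM with the inhibitor and at 50.4, 49.8 and 46.5 CPM in Tyr19Phe CDK9 cells. Again the 3 Tyr19Phe CDK9 libraries were below every other library. RBL1 fell by 16.6% (log2 fold change -0.26, SE 0.07, edgeR adjusted p = 0.00984). With the inhibitor the value was -0.02 (SE 0.07, edgeR adjusted p = 0.963), and the direct contrast was -0.25 (SE 0.07, edgeR adjusted p = 0.0137).

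RBL2, whose protein p130 prevails in resting cells, was the steadiest member, from 90.1 to 98.2 CPM over the 9 libraries. The 3 inhibitor-treated libraries, at 94.6 to 98.2 CPM, were above the WT CDK9 libraries at 92.5 to 94.0 CPM, but the log2 fold change was 0.04 (SE 0.06, edgeR adjusted p = 0.822). With Tyr19Phe CDK9 it was 0.01 (95% interval -0.11 to 0.12, edgeR adjusted p = 0.956).

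Within each library, the balance between members could be read without regard to depth. The ratio of RBL2 to RBL1, in RPKM, was 1.26 to 1.31 in WT CDK9 libraries, 1.26 to 1.44 with the inhibitor and 1.45 to 1.69 in Tyr19Phe CDK9 libraries. The ratio of E2F1 to RB1 was 1.86 to 2.22 in WT CDK9, 1.77 to 1.94 with the inhibitor and 2.32 to 2.54 in Tyr19Phe CDK9 libraries. That of E2F1 to E2F2 was 17.5 to 21.6, 14.5 to 20.6 and 23.5 to 27.8 in the same order. In each of these 3 ratios the Tyr19Phe CDK9 libraries lay above all others. The genes divided by, RBL1, RB1 and E2F2, are the 3 members called lower with Tyr19Phe CDK9. These ratios therefore restate those calls and are not a separate result. In 2 further ratios the Tyr19Phe CDK9 libraries did not stand apart in this way. E2F7 to E2F8 was 1.60 to 2.09 in WT CDK9 libraries, below all others, and 2.11 to 2.97 in inhibitor-treated and 2.33 to 2.56 in Tyr19Phe CDK9 libraries, which overlapped. RB1 to RBL1 overlapped in all groups, at 2.46 to 2.74, 2.31 to 2.69 and 2.46 to 2.98.

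Summed by role, the activators made up 59.9% ± 0.434 of the RPKM of the 7 E2F genes in WT CDK9 cells, 57.8% ± 0.771 with the inhibitor and 59.4% ± 0.255 in Tyr19Phe CDK9 cells (SD, n = 3). The atypical E2Fs held 17.6% ± 0.987, 18.5% ± 0.894 and 19.7% ± 0.390, and the repressors 22.5% ± 1.31, 23.7% ± 0.171 and 20.9% ± 0.625 (SD, n = 3). The activator share of each inhibitor-treated library, at most 58.7%, lay under that of all other libraries, at 59.1% or more. E2F1 alone made up 51.8 of the 67.4 RPKM of the activators in WT CDK9 cells. This share is therefore not separate from the call of E2F1. The pocket proteins summed to 48.3 ± 0.974 RPKM in WT CDK9 cells, 47.2 ± 0.706 RPKM with the inhibitor and 43.3 ± 1.35 RPKM in Tyr19Phe CDK9 cells (SD, n = 3). The Tyr19Phe CDK9 sums, from 41.8 to 44.4 RPKM, were below those of all other libraries, which were at 46.4 RPKM or more. RB1 and RBL1, both called lower there, are part of these sums.

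The calls differed in how far they rested on single libraries. E2F7 with Tyr19Phe CDK9 was called in all 6 fits that left out 1 library of the compared groups (edgeR adjusted p up to 0.00807), and so was E2F1 in the direct contrast (edgeR adjusted p up to 0.00599). RBL1 with Tyr19Phe CDK9 was lost without Tyr19Phe CDK9 replicate 3 (edgeR adjusted p = 0.0666), and RB1 without WT CDK9 replicate 1 or Tyr19Phe CDK9 replicate 2 (edgeR adjusted p = 0.0587 and 0.0778). E2F1 with the inhibitor stayed called in 2 of 6 such fits and was lost without WT CDK9 replicate 2 or 3 or ALK inhibitor replicate 2 or 3 (edgeR adjusted p from 0.0583 to 0.176). E2F2 with Tyr19Phe CDK9 also stayed called in 2 of 6 and was lost without WT CDK9 replicate 1 or 3 or Tyr19Phe CDK9 replicate 2 or 3 (edgeR adjusted p from 0.126 to 0.159). Scaling by total counts alone also ended the calls of E2F1 with the inhibitor and E2F2 with Tyr19Phe CDK9 (edgeR adjusted p = 0.0600 and 0.0632), and so did leaving out the filter for E2F2 (edgeR adjusted p = 0.0752). In the direct contrast, E2F7 was lost without ALK inhibitor replicate 1 or 2 or Tyr19Phe CDK9 replicate 3 (edgeR adjusted p from 0.0516 to 0.0558), and RBL1 without ALK inhibitor replicate 2 or Tyr19Phe CDK9 replicate 3 (edgeR adjusted p = 0.0903 and 0.0798).

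With both libraries that stood apart left out together, E2F7 and RB1 were called with Tyr19Phe CDK9 (edgeR adjusted p = 0.00457 and 0.00795) and E2F1 in the direct contrast (edgeR adjusted p = 0.0233). RBL1 and E2F2 with Tyr19Phe CDK9 (edgeR adjusted p = 0.0519 and 0.110), E2F1 with the inhibitor (edgeR adjusted p = 0.105) and E2F7 and RBL1 in the direct contrast (edgeR adjusted p = 0.121 and 0.236) were not. All of these kept their sign.

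**Figure D4:**
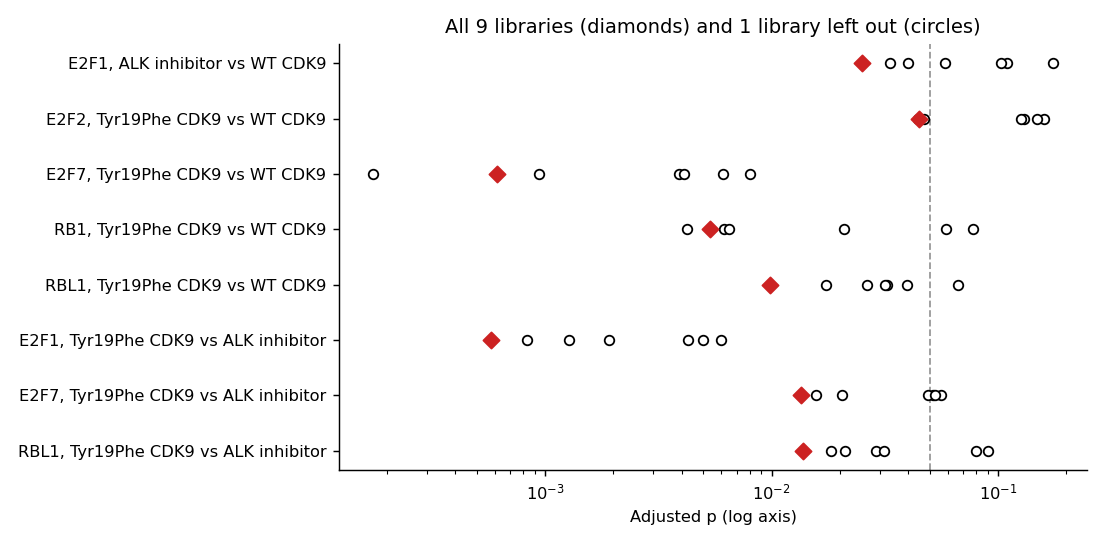
Adjusted p on a log axis for each call of a member with all 9 libraries (diamonds) and with 1 library of the compared groups left out (circles); the dashed line is 0.05. All circles of E2F7 against WT CDK9 cells and of E2F1 in the direct contrast stay left of the line, and 4 of 6 circles of E2F1 with the inhibitor and of E2F2 lie right of it.

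The genes around E2F1, E2F2, RB1 and RBL1 had median changes near 0 where these members were called against WT CDK9 cells. The 97 tested genes within 5 Mb on either side of E2F1 had a median change of 0.03 (log2) in inhibitor-treated cells. With Tyr19Phe CDK9, the medians were 0.03 around E2F2 (130 genes), 0.03 around RBL1 (96 genes) and -0.01 around RB1 (62 genes). The strandedness of the counts is not given in the sources used here, so reads of antisense genes cannot be told from those of a member. By the exons of GENCODE release 44, E2F5 shares 16.6% of its exon bases with RBIS and RBL2 shares 7.51% with AKTIP, both on the opposite strand. Also on the opposite strand, RBL2 shares 8.89% with ENSG00000279344 and RBL1 shares 3.58% with ENSG00000269846. E2F5 shares a further 2.22% with ENSG00000254208, and E2F8 shares 0.169% with CSRP3-AS1. RB1 has LPAR6 inside its span, on the opposite strand and with 0 shared exon bases.

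Beyond the 10 members, the other parts of the pathway were counted in lists. Their calls are to be read against the shares of all tested genes called in each comparison, given above. Of the partners, TFDP1 and TFDP2, which encode the DP proteins, and E2F6, a repressor that works without pocket proteins, were tested, and TFDP3 had 0 counts. With the inhibitor 0 were called by edgeR or DESeq2 and 1 had an unadjusted p under 0.05, with log2 fold changes from -0.11 to 0.10. With Tyr19Phe CDK9 again 0 were called by either tool, and all 3 had an unadjusted p under 0.05, with log2 fold changes of -0.12 for TFDP1, -0.17 for TFDP2 and -0.31 for E2F6. The share of all tested genes under this unadjusted threshold was not counted. It cannot be smaller than the share called, with Tyr19Phe CDK9 10.4% lower and 7.61% higher. Counts at an unadjusted p, here and below, therefore cannot be judged against all genes. E2F6 was called lower by edgeR without Tyr19Phe CDK9 replicate 3 (edgeR adjusted p = 0.0488) and without both libraries that stood apart (edgeR adjusted p = 0.0401). TFDP2 was lower in Tyr19Phe CDK9 than in inhibitor-treated cells, at 55.3 ± 1.27 against 66.9 ± 0.402 CPM (SD, n = 3; log2 fold change -0.27, edgeR adjusted p = 0.00477).

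The MuvB core works with E2F4 and p130 in resting cells and with B-MYB (MYBL2) and FOXM1 in dividing cells. Of its 5 genes with MYBL2 and FOXM1, 1 was called. LIN54, the subunit that binds DNA at the CHR element, fell with Tyr19Phe CDK9 from 47.8 ± 1.99 to 36.9 ± 3.67 CPM (SD, n = 3; log2 fold change -0.37, SE 0.08, edgeR adjusted p = 0.00140). With the inhibitor the change was 0.08 (edgeR adjusted p = 0.745), and the direct contrast was -0.45 (edgeR adjusted p = 1.14e-04). LIN54 lies on chromosome 4, where the 43 tested genes within 5 Mb on either side had a median log2 fold change of -0.25 with Tyr19Phe CDK9 and 14 of them were called lower and 0 higher. For MYBL2 and FOXM1, the activators of the G2/M programme, the inhibitor gave log2 fold changes of -0.12 and -0.0075, and Tyr19Phe CDK9 gave -0.08 and 0.06. Neither was called in edgeR's test, and DESeq2 called MYBL2 with the inhibitor (DESeq2 adjusted p = 0.0176). LIN9, LIN52 and RBBP4 had log2 fold changes from -0.34 to 0.11 over the 3 comparisons, and LIN37, at under 2 CPM, from 0.57 to 1.38, with 0 called by edgeR on all 9 libraries. With Tyr19Phe CDK9, LIN52 was called lower without both libraries that stood apart (edgeR adjusted p = 0.0402) and LIN37 higher without WT CDK9 replicate 1 (edgeR adjusted p = 0.0200).

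The list of G1 cyclins, CDKs and CDK inhibitors, which set the phosphorylation of the pocket proteins, held 12 tested genes. CDKN2A and CDKN2B, the genes of the CDK4 and CDK6 inhibitors p16 and p15, had 0 or 1 counts per library, and CCND2 0 to 3. With the inhibitor 2 genes were called lower, CDK6 (log2 fold change -0.19, edgeR adjusted p = 0.00608) and CCND3 (-0.23, edgeR adjusted p = 0.0157). With Tyr19Phe CDK9 the same 2 genes were called lower, CDK6 by -0.45 (SE 0.04, edgeR adjusted p = 1.64e-09) and CCND3 by -0.21 (edgeR adjusted p = 0.0119), while CCND1, the gene of cyclin D1, rose by 0.32 (SE 0.04, edgeR adjusted p = 1.32e-07). The levels of CDK6 were 286 ± 10.5 CPM in WT CDK9, 251 ± 3.86 CPM in inhibitor-treated and 209 ± 4.75 CPM in Tyr19Phe CDK9 cells (SD, n = 3). CCND1 was at 454 ± 2.39, 423 ± 13.1 and 566 ± 15.9 CPM in the same order (SD, n = 3). Directly, CDK6 and CCNE1 were lower in Tyr19Phe CDK9 than in inhibitor-treated cells (log2 fold changes -0.26 and -0.32, edgeR adjusted p = 2.10e-05 and 0.0316) and CCND1 higher (0.42, edgeR adjusted p = 3.55e-10). The 41 tested genes around CDK6 had a median of -0.18 in this contrast, with 7 called lower and 0 higher. Against WT CDK9 cells their median was -0.0059 with Tyr19Phe CDK9, and 0.13 with the inhibitor, where 2 were called lower and 6 higher. CCND3 was lost with the inhibitor without WT CDK9 replicate 2 or ALK inhibitor replicate 1 or 3 (edgeR adjusted p up to 0.112), and with Tyr19Phe CDK9 without WT CDK9 replicate 2 or Tyr19Phe CDK9 replicate 1 (edgeR adjusted p up to 0.0806). CDK6 with the inhibitor was lost without WT CDK9 replicate 3 (edgeR adjusted p = 0.0655), and CCNE1 without ALK inhibitor replicate 2 or 3 or Tyr19Phe CDK9 replicate 2 or 3 (edgeR adjusted p up to 0.217).

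Among 10 corepressors that bind the pocket, such as histone deacetylases, HDAC2 alone was called, and its level was lower in Tyr19Phe CDK9 than in WT CDK9 cells (log2 fold change -0.15, edgeR adjusted p = 0.0191), and it was lost without WT CDK9 replicate 1 or 3 or Tyr19Phe CDK9 replicate 2 or 3 (edgeR adjusted p up to 0.118). The 4 genes of E2F turnover, CCNF, SKP2, FZR1 and FBXO5, gave 0 calls in any comparison by edgeR or DESeq2, with log2 fold changes from -0.09 to 0.16. At an unadjusted p under 0.05 there were 2, CCNF and SKP2 in the direct contrast.

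E2F switches on genes of the replication machinery and of nucleotide synthesis at the G1/S boundary. With the inhibitor, of 54 tested G1/S targets, 7 were called lower and 0 higher, where 2.73% and 1.82% of all tested genes were. Of the 54, 47 had a log2 fold change below 0. The median was -0.10, against -0.0010 over all tested genes. The 3 with the smallest adjusted p were POLE, the catalytic subunit of a replicative polymerase (log2 fold change -0.21, edgeR adjusted p = 0.00339), MCM3 of the replicative helicase (-0.21, edgeR adjusted p = 0.00485) and TYMS, which makes thymidylate (-0.30, edgeR adjusted p = 0.0112). POLE was at 260 ± 12.7 CPM in WT CDK9 cells and 225 ± 3.19 CPM with the inhibitor, and TYMS at 63.0 ± 1.59 and 51.3 ± 2.18 CPM (SD, n = 3). The number called lower moved with both scaling and libraries: it was 3 under scaling by total counts alone, 3 with both libraries that stood apart left out, and 2 to 4 in every fit with 1 library left out, lowest without ALK inhibitor replicate 1. In each of these fits, and by DESeq2, 0 were called higher, and at an unadjusted p under 0.05 there were 15 lower and 0 higher. The share of all tested genes at that unadjusted threshold was not counted.

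With Tyr19Phe CDK9 the same 54 targets went both ways. There 7 were called lower and 4 higher, where 10.4% and 7.61% of all tested genes were. Of the 54, 31 lay below 0, and the median was -0.02, against 0.0035 over all tested genes. ATAD2, a chromatin cofactor of E2F (log2 fold change -0.26, edgeR adjusted p = 4.31e-05), POLA1 of the primase complex (-0.36, edgeR adjusted p = 4.97e-04) and PCNA, the sliding clamp (-0.22, edgeR adjusted p = 6.27e-04), were lower. MCM5 (0.32, edgeR adjusted p = 2.38e-05), TYMS (0.23, edgeR adjusted p = 0.0217) and FEN1 (0.16, edgeR adjusted p = 0.0267) were higher. The 109 tested genes around MCM5 had a median of 0.20, with 33 called higher and 4 lower, and the 27 around TYMS a median of 0.13. Scaling by total counts alone gave 6 lower and 7 higher. The number called higher fell to 1 without WT CDK9 replicate 1 or Tyr19Phe CDK9 replicate 2 and to 2 without WT CDK9 replicate 3.

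In Tyr19Phe CDK9 cells 11 targets were called higher and 1, ATAD2, lower than in inhibitor-treated cells, where 9.57% and 11.1% of all tested genes were. The median of the targets was 0.05, with 15 of 54 below 0. Those with the smallest adjusted p were MCM5 (log2 fold change 0.42, edgeR adjusted p = 1.57e-07), TYMS (0.52, edgeR adjusted p = 1.31e-06) and TK1, a thymidine kinase (0.26, edgeR adjusted p = 2.12e-04). The genes around MCM5 had a median of 0.20 and those around TYMS of 0.24 in this contrast. ATAD2 was lost without ALK inhibitor replicate 2 or 3 or Tyr19Phe CDK9 replicate 1 or 2 (edgeR adjusted p up to 0.129). TYMS overlaps ENOSF1 on the opposite strand, so its reads may include those of that gene. With 1 library left out at a time 8 to 12 were called higher, and 7 with both libraries that stood apart left out.

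**Figure D5:**
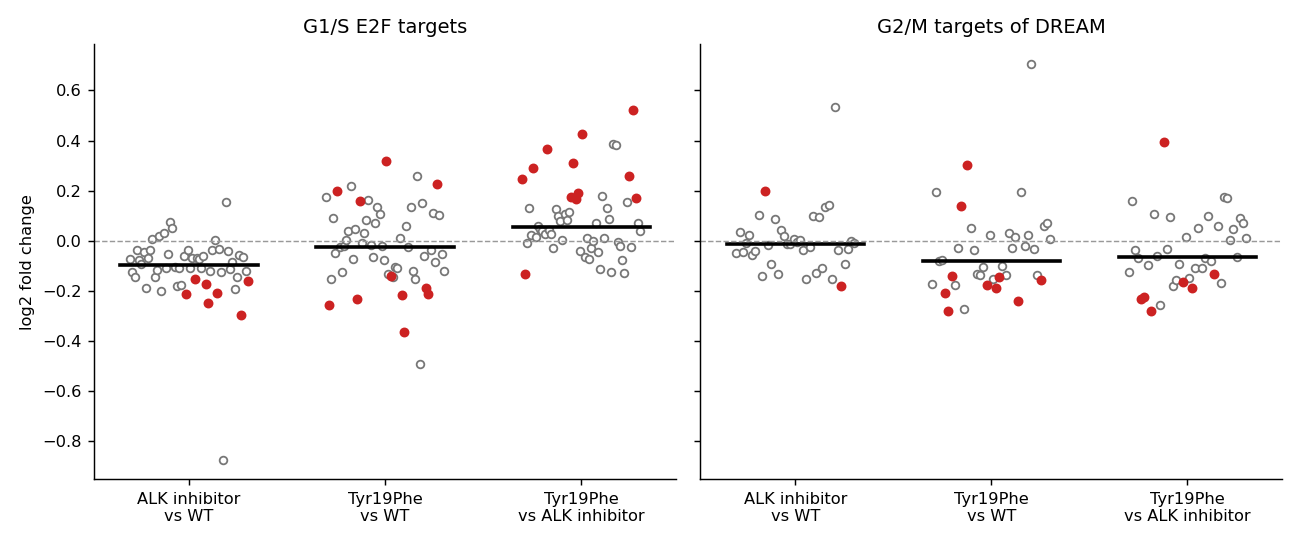
Log2 fold change of each tested gene of 2 lists of cell cycle genes in the 3 comparisons (points, red where the adjusted p was under 0.05 in edgeR's test), with the median (line). With the inhibitor 47 of 54 G1/S targets lie below 0, and in Tyr19Phe CDK9 cells both lists spread to both sides.

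The promoters of these targets were searched for the same E2F letters. RefSeq windows were at hand for 44 of the 54, and an E2F match stood in 42.6% of their 68 windows, against 3.31% of all windows. Of 28 targets with a match, 6 were called lower with the inhibitor and 26 lay below 0, and of 16 without a match 1 was called lower and 15 lay below 0. Across all tested genes with a window except the members, 4.08% of the 710 with a match were called lower with the inhibitor and 1.13% higher. Of the 10221 without a match, 2.80% and 2.18% were. The G1/S targets just described are counted in these shares. With Tyr19Phe CDK9, 12.3% of the genes with a match were called lower and 8.45% higher, against 12.1% and 8.6% of those without. No test was made of these shares.

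The genes of mitosis that DREAM holds silent in resting cells and that B-MYB and FOXM1 raise later formed a list of 38. Of these, 1 was called lower and 1 higher with the inhibitor, TACC3 (log2 fold change -0.18, edgeR adjusted p = 0.0253) and CDC25B (0.20, edgeR adjusted p = 0.00137), and the median was -0.01. TACC3 was not called in any of the 6 fits with 1 library left out (edgeR adjusted p up to 0.112). With Tyr19Phe CDK9, 8 were called lower and 2 higher, where 10.4% and 7.61% of all tested genes were. The median of the 38 was -0.08, with 25 below 0. MKI67, the proliferation antigen Ki-67 (-0.24, edgeR adjusted p = 2.71e-05), CCNA2, cyclin A2 (-0.28, edgeR adjusted p = 3.20e-05), and TOP2A, a topoisomerase (-0.16, edgeR adjusted p = 0.00237), fell, and CDC25B (0.14, edgeR adjusted p = 0.0122) and CDCA3 (0.30, edgeR adjusted p = 0.0403) rose. The number lower was 4 without WT CDK9 replicate 1 or 3, and 5 under scaling by total counts alone, with 2 higher. CDCA3 was lost in 5 of 6 fits with 1 library left out, each but that without Tyr19Phe CDK9 replicate 1 (edgeR adjusted p up to 0.153). CCNA2 lies on chromosome 4, and the 29 tested genes around it had a median of -0.20, with 11 called lower and 0 higher. Directly, 6 were lower and 1 higher in Tyr19Phe CDK9 than in inhibitor-treated cells, where 11.1% and 9.57% of all tested genes were. The lower calls were led by CCNA2, BUB1B and CCNB2 (log2 fold changes -0.22, -0.23 and -0.28), and CDCA3 was higher (0.39). In this contrast the 29 genes around CCNA2 had a median of -0.32, with 12 called lower and 0 higher. With both libraries that stood apart left out, 3 were lower and 0 higher. The CHR element (TTTGAA, both strands) stood in 55.8% of the 43 windows of this list, against 15.2% of all windows and 7.35% of those of the G1/S targets.

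Of 8 genes through which E2F1 is known to promote cell death, 0 were called with the inhibitor by edgeR or DESeq2, and 3 had an unadjusted p under 0.05, all with higher levels. TP73 was called lower with Tyr19Phe CDK9 (edgeR adjusted p = 0.00140), on few reads: it had 13 to 32 counts in WT CDK9, 22 to 32 in inhibitor-treated and 0 to 4 in Tyr19Phe CDK9 libraries. In the direct contrast 2 of the 8 were called lower and 0 higher, where 11.1% and 9.57% of all tested genes were. TP73 was among them and stayed called in all 6 fits with 1 library left out.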

How the data were processed

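The deposited table holds raw read counts per gene for 9 libraries of SKOV3 cells. The authors made these counts, per the submitters' processing notes, with CASAVA, HISAT2 2.0.5 and featureCounts 1.5.0-p3 on hg38; the annotation and strand setting are not given in the sources used here. Libraries were matched to their groups by column name, and 0 columns stayed unmatched. The 10 genes and the lists were chosen with earlier results of these data known.

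Genes were kept by filterByExpr (minimum count 10, minimum total 15), scaled by TMM, and tested with edgeR's quasi-likelihood test on all 9 libraries (6 residual degrees of freedom), with Benjamini-Hochberg adjustment over 16350 genes and a threshold of 0.05. All 10 members were named; so were all tested genes of the partner, MuvB and turnover lists, and of each other list the 3 lower and 3 higher calls with the smallest adjusted p. CPM and RPKM were computed from the counts, and intervals are at 95%. Neighbours were the tested genes within 5 Mb on either side. A floor of 3 counts per library is 0.102 to 0.165 CPM, which covers counting error only. Total counts ran from 18169050 to 29320184 per library.

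Alternatives were DESeq2 size factors in edgeR, total counts alone, DESeq2, no filter beyond 1 count, at least 10 counts in every library, a replicate block, only the 2 groups compared and each library left out. Leaving out both libraries that stood apart was added after seeing the data. No pairing of libraries by replicate number was seen: over 9 pairs with the same number the correlation of deviations from the group means ran from -0.01 to 0.03. R 4.3.3, edgeR 4.0.16, limma 3.58.1, DESeq2 1.42.0, Python 3.11.15, pandas 2.3.3 and matplotlib 3.10.9 were used, and the fits were tested on simulated data. The values of 1 gene of the cell death list are not reported here.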

Additional observations from a re-analysis of the deposited data

How the results depend on the processing

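With the inhibitor, the number of members called, 1, became 0 under scaling by total counts alone and with both libraries that stood apart left out, and was 0 to 1 with 1 library left out at a time. With Tyr19Phe CDK9 it was 4, and 3 under total counts alone or with no filter beyond 1 count, where E2F2 was lost, 2 without both libraries that stood apart, and 2 to 4 with 1 left out. In the direct contrast it was 3, then 1 and 1 to 3. With the replicate block the counts were 1, 4 and 3, and the block changed no call of a member. The causes of these changes were not tested. The fits that leave libraries out also rest on fewer libraries, and this was not separated from which library was left out.

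The log2 fold changes that changed sign lay near 0 and were not called by edgeR. Under total counts alone, RBL1 and FOXM1 with the inhibitor became 0.0105 and 0.0181. Without both libraries that stood apart, the values with the inhibitor were 0.0704 for E2F5, 0.0046 for LIN9, 0.0138 for SKP2 and -0.0360 for FBXO5, those with Tyr19Phe CDK9 were -0.0106 for RBL2 and -0.0027 for LIN9, and the direct contrast of LIN9 was -0.0073. With 1 library left out, the ranges with the inhibitor were -0.21 to 0.0191 for E2F2, -0.0380 to 0.0447 for E2F3, -0.0830 to 0.0205 for E2F4, -0.17 to 0.0705 for E2F5, -0.0607 to 0.0172 for RBL1, -0.14 to 0.0231 for E2F6, -0.10 to 0.0048 for LIN9, -0.0278 to 0.0159 for FOXM1, -0.0852 to 0.0141 for SKP2 and -0.0357 to 0.0457 for FBXO5. With Tyr19Phe CDK9 they were -0.17 to 0.0073 for E2F8, -0.0104 to 0.0369 for RBL2, -0.0249 to 0.0717 for LIN9 and -0.0652 to 5.52e-05 for FBXO5. In the direct contrast they were -0.21 to 0.0654 for E2F5 and -0.0669 to 0.0431 for TFDP1. E2F2 and E2F5 had the lowest counts and the widest errors of the members, and LIN37 and TP73 were not tested where at least 10 counts were required in every library.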
